A study of Drosophila melanogaster with 6 samples.

Results

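The 10 genes described here encode secreted growth and stress signals of epithelia and 1 of their intracellular inhibitors. They were taken by FlyBase symbol from the count table of larval intestines, which has 24278 entries. The set holds the JAK/STAT ligands upd2 and upd3, the STAT target Socs36E, the EGFR ligands vn, Krn and spi, the BMP ligand dpp, the Wnt ligand wg, the Hedgehog ligand hh and the PDGF- and VEGF-related ligand Pvf1. All 10 were found once, and all 10 passed the filter on low counts.

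RNA was sequenced from whole intestines of Drosophila larvae in 3 EcRi libraries and 3 control libraries, numbered in the labels as biological replicates. Larvae of both genotypes carried Tub-LexA, LexO-spok RNAi, Tub-GAL80ts and UAS-EcR RNAi. The spok hairpin, driven ubiquitously, was meant to stop synthesis of the moulting hormone ecdysone, and GAL80ts held the drivers off at 18 °C, where the larvae spent 6 days. The shift to 29 °C early in the last larval stage released the drivers, and guts were taken 4 days later. The EcRi larvae also carried Myo1A-GAL4, a driver active in enterocytes, so that the hairpin against the ecdysone receptor EcR was expressed in these absorptive cells. By the crosses in the methods the control larvae had no GAL4 driver, whereas their sample titles name a Myo1A control, and the files used here do not settle this. A knockdown of EcR without hormone serves to release genes that the unliganded receptor represses. How many intestines went into a library is not given in the sources used here.

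The ligands carry signals between cells. Unpaired proteins bind the receptor Domeless and activate the kinase Hopscotch and the transcription factor Stat92E, which switches on Socs36E, an inhibitor of the same pathway. Spitz and Keren are made as membrane-bound precursors that rhomboid proteases release to activate the EGF receptor, while Vein is secreted without this step. Decapentaplegic, Wingless and Hedgehog pattern the embryonic gut and the boundaries between its regions, and Pvf proteins activate the receptor Pvr. In the adult fly intestine, damaged or stressed enterocytes release Upd and EGF-like ligands that drive the division of stem cells, and in the larval midgut EGFR signalling drives the division of the adult midgut progenitors.

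Library totals lay between 200890663 and 246255664 counts in the EcRi libraries and between 207243581 and 236532831 in the control libraries. Counts were scaled by TMM and are given as CPM, counts scaled to a library of 1e6. TMM factors correct for differences between libraries in how counts are spread over the entries. They were 1.21 to 1.30 in the EcRi libraries and 0.713 to 0.845 in the control libraries. The 10 most abundant entries held 9.65 to 10.7% of the counts in the EcRi libraries and 17.9 to 22.1% in the control libraries. EcR, the gene targeted by the hairpin, had 28.8, 28.7 and 32.0 CPM in the EcRi libraries, against 45.6, 28.3 and 26.6 CPM in the control libraries (log2 fold change -0.17, standard error 0.21, adjusted p = 0.517 by edgeR). The groups overlapped, so these values do not show the knockdown, and reads from the hairpin cannot be told apart from those of the gene. The libraries are called EcRi after their labels.

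All 10 genes were higher in the EcRi libraries (adjusted p from 4.31e-07 to 0.00358 by edgeR's quasi-likelihood test), while 30.1% of the 12193 tested entries were higher and 29.3% were lower. On the log2 scale their median change was 1.79, against 0.03 over all tested entries. More than a 2-fold increase was found for 7 of the 10 genes, against 16.7% of tested entries. For each of the 10 genes every EcRi library lay above every control library, a pattern shared by 34.9% of tested entries. The 10 genes were chosen with earlier results of these data known, so these shares describe the set and do not test it. With 3 libraries against 3, a two-sided exact permutation test of the log2 CPM values reached p = 0.1 for each gene, the smallest value possible. Since the RNA came from whole intestines, a higher share of the cells that express a gene and more of its RNA per cell cannot be told apart.

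**Figure D1:**
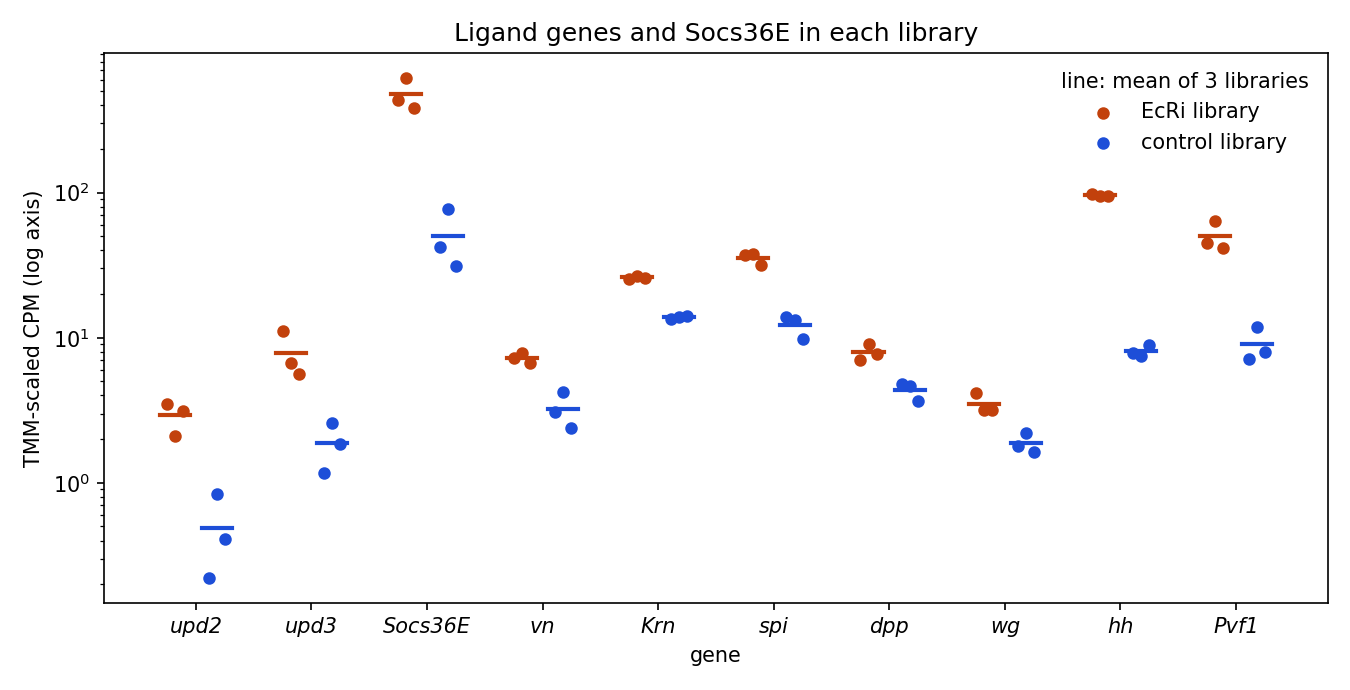
TMM-scaled CPM (log axis) of the 10 genes in each of the 3 EcRi libraries (left of each pair, orange) and the 3 control libraries (right, blue), with a line at each mean. In all 10 genes the EcRi points lie above the control points; the gap is widest for hh, whose lowest EcRi library was 10.6 times the highest control library.

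The genes of the JAK/STAT pathway stood among the larger increases. The gene upd2 (FBgn0030904) lies on chromosome X of the BDGP6 genome (dm6), on the minus strand from 18240654 to 18243284. It had 3.51, 2.11 and 3.10 CPM in the EcRi libraries, against 0.222, 0.834 and 0.412 CPM in the control libraries. The control libraries of upd2 spread 3.76-fold in CPM, the widest spread of any of the 10 genes in either genotype. Their raw counts ran from 44 to 146. Its log2 fold change was 2.57 (standard error 0.48, adjusted p = 0.00355 by edgeR), and without control replicate 2, the highest control library, it was 3.19. A related ligand gene, upd3 (FBgn0053542), lies 33.9 kb away on the plus strand, from 18277233 to 18284596. For upd3 the EcRi libraries held 11.1, 6.68 and 5.64 CPM and the control libraries 1.17, 2.59 and 1.86 CPM. EcRi replicate 1 was the highest for both ligands, and the log2 fold change of upd3 was 2.06 (standard error 0.37, adjusted p = 0.00349 by edgeR).

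Socs36E (FBgn0041184, chromosome 2L, minus strand, 18138675 to 18152417) encodes a suppressor of cytokine signalling whose transcription is a standard readout of Stat92E activity. It had 438, 617 and 381 CPM in the EcRi libraries, against 42.5, 77.2 and 31.4 CPM in the control libraries. This was the most abundant of the 10 transcripts by CPM, and its lowest EcRi library was 4.93 times its highest control library. For Socs36E the log2 fold change was 3.25 (standard error 0.40, adjusted p = 0.000704 by edgeR), or 9.50-fold. Within the EcRi genotype Socs36E did not follow the order of the ligands, since it was highest in replicate 2, where upd2 was lowest. Within the control genotype replicate 2 was the highest library for upd2, upd3 and Socs36E alike.

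Other genes of the JAK/STAT pathway were taken from a list of 10, all of them tested, of which 7 were higher and none lower. The third ligand gene, upd1, lies 20.8 kb from upd3, and its counts were 182, 141 and 132 in the EcRi libraries, against 14, 13 and 2 in the control libraries. These are low levels, 0.748, 0.455 and 0.460 CPM in the EcRi libraries against 0.0706, 0.0742 and 0.0127 CPM in the control libraries, and the log2 fold change was 3.36 (standard error 0.52, adjusted p = 0.000964 by edgeR). The receptor dome, which is also a STAT target, had 303, 381 and 284 CPM in the EcRi libraries, against 60.7, 74.4 and 57.3 CPM in the control libraries. For dome the log2 fold change was 2.33 (standard error 0.16, adjusted p = 1.65e-05 by edgeR). The receptor-related inhibitor et rose by 1.78 on the log2 scale, the phosphatase gene Ptp61F, which restrains the pathway, by 1.35, and the transcription factor and reported target chinmo by 0.58. The kinase gene hop had 37.4 ± 5.64 CPM in EcRi and 33.5 ± 0.583 CPM in the control (SD, n = 3 each) and did not pass the test (adjusted p = 0.258 by edgeR). The transcription factor gene Stat92E rose, with 333 ± 65.9 CPM in EcRi and 195 ± 11.8 CPM in the control (log2 fold change 0.78, adjusted p = 0.00279 by edgeR).

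The 3 EGFR ligand genes rose by 1.89- to 2.89-fold, beside 4.16-fold for upd3 and 5.95-fold for upd2. The gene spi (FBgn0005672, chromosome 2L, minus strand, 19567900 to 19577315), which encodes the main activating ligand, had 36.9, 37.5 and 31.8 CPM in the EcRi libraries, against 13.8, 13.2 and 9.76 CPM in the control libraries. Its log2 fold change was 1.53 (standard error 0.14, adjusted p = 7.43e-05 by edgeR). Krn (FBgn0052179, chromosome 3L, minus strand, 17649562 to 17654280), a close relative of spi, had 25.4, 26.8 and 26.0 CPM in the EcRi libraries, against 13.4, 13.8 and 14.2 CPM in the control libraries. The Krn libraries hardly differed within a genotype, with a coefficient of variation of 2.57% in EcRi and 2.72% in the control. The log2 fold change of Krn was 0.92 (standard error 0.08, adjusted p = 3.86e-05 by edgeR). Exons of Krn share 289 bases with those of Ndfip on the same strand. Ndfip itself had a log2 fold change of 0.60 (adjusted p = 0.000754 by edgeR), and how reads in the shared stretch were assigned is not given in the sources used here.

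The third EGFR ligand gene, vn (FBgn0003984, chromosome 3L, minus strand, 5813338 to 5845664), encodes a neuregulin-like protein that visceral muscle is known to supply to the gut epithelium. It had 7.30, 7.85 and 6.65 CPM in the EcRi libraries, against 3.08, 4.20 and 2.39 CPM in the control libraries. For vn the log2 fold change was 1.17 (standard error 0.20, adjusted p = 0.00170 by edgeR). Of 9 muscle markers 7 were lower and 1, how, was higher in EcRi, beside 29.3% lower and 30.1% higher over all tested entries. The summed level of these markers lay between 1230 and 1450 CPM in the EcRi libraries and between 3530 and 3950 CPM in the control libraries, with no marker at 0. Thus the vn transcript was higher in libraries in which the summed muscle transcripts were lower, and whether the 2 are related was not tested.

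Ratios within a library do not depend on the scaling, and 4 pairs were compared in this way. The ratio of Krn to spi counts was 0.689, 0.715 and 0.818 in the EcRi libraries, against 0.974, 1.05 and 1.45 in the control libraries. The groups did not overlap, and the log2 ratio was lower by 0.63 in EcRi (difference -0.63, two-sided exact permutation test, p = 0.1, adjusted p = 0.2 over the 4 ratios). For vn to spi the ratios were 0.198, 0.210 and 0.209 in the EcRi libraries and 0.224, 0.319 and 0.245 in the control libraries, again without overlap (difference -0.34 on the log2 scale, exact permutation p = 0.1, adjusted p = 0.2). Vn to Krn (difference 0.29, exact permutation p = 0.4) and upd3 to upd2 (difference -0.67, exact permutation p = 0.3) overlapped between the genotypes. Per length of exon, spi made up 50.2, 49.2 and 46.1% of the summed level of the 3 EGFR ligands in the EcRi libraries, against 41.9, 39.7 and 33.0% in the control libraries. Krn made up 46.4 to 50.6% in EcRi and 54.8 to 64.2% in the control, and vn 3.34 to 3.58% in EcRi and 2.80 to 4.40% in the control. The exon length of Krn includes the 289 bases shared with Ndfip, so these shares depend on how reads there were assigned. With 3 libraries a genotype this exact permutation test cannot go below p = 0.1, and no other test of the ratios was run.

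Among 20 other tested EGFR pathway genes 14 were higher and 1 was lower. The 4 target genes all rose. These are aos, a secreted inhibitor of the receptor (10.3 ± 2.79 CPM in EcRi and 3.63 ± 0.476 CPM in the control, log2 fold change 1.51), kek1, a membrane inhibitor (1.38), sty, an intracellular inhibitor (1.05), and pnt, the transcriptional effector (0.77). The protease gene rho, whose product releases the ligands Spitz and Keren, had 6.66, 4.77 and 4.73 CPM in the EcRi libraries, against 1.19, 1.45 and 0.989 CPM in the control libraries (log2 fold change 2.15, standard error 0.21, adjusted p = 8.54e-05 by edgeR). The related protease gene stet was below 1 CPM in both genotypes and had a log2 fold change of 1.64 (adjusted p = 0.0208 by edgeR), which lost its call when control replicate 1, control replicate 3 or EcRi replicate 1 was left out (adjusted p from 0.0655 to 0.0777). The receptor Egfr rose by 0.45, and the ligand gene grk, known from the ovary, had 2.47 ± 0.307 CPM in EcRi and 2.17 ± 0.517 CPM in the control (SD, n = 3 each; adjusted p = 0.472 by edgeR).

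**Figure D2:**
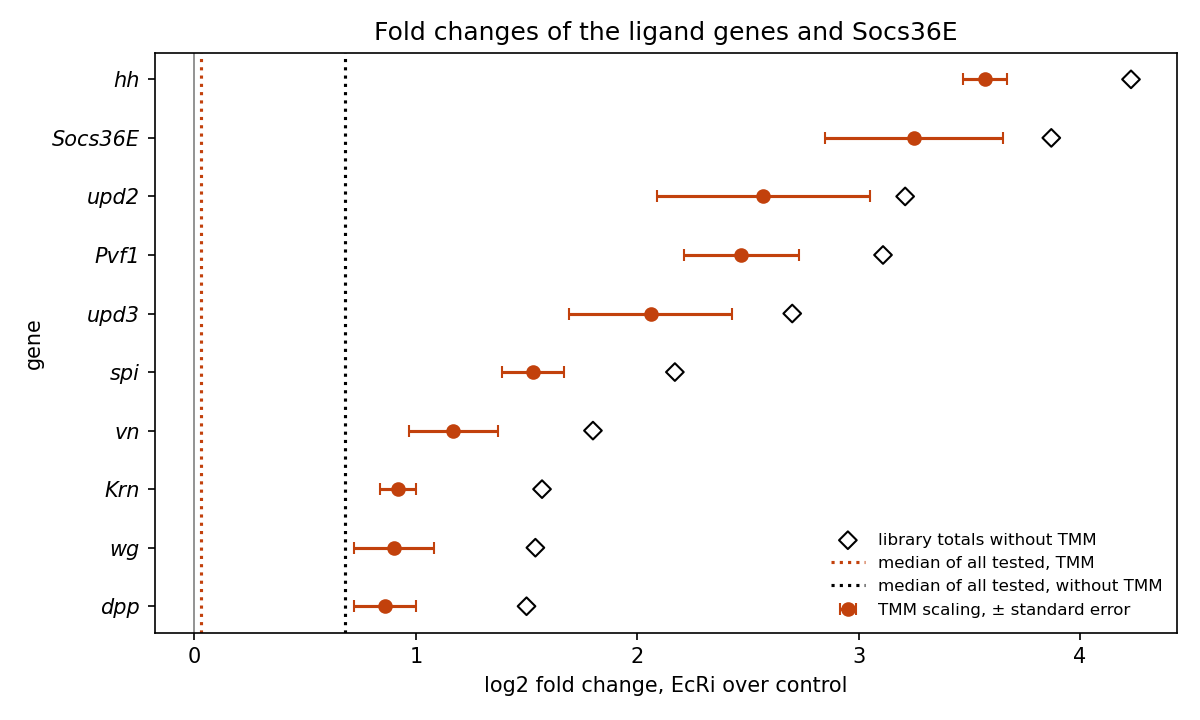
Log2 fold changes, EcRi over control, of the 10 genes with TMM scaling (orange, bars are standard errors) and with library totals alone (open diamonds), and the median of all tested entries under each scaling (dotted lines). Every gene lies right of both medians, from 0.86 for dpp to 3.57 for hh with TMM.

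The gene hh had the largest increase of the 10. The gene (FBgn0004644, chromosome 3R, minus strand, 23128169 to 23141906) encodes the Hedgehog ligand. Its level was 97.8, 94.3 and 95.5 CPM in the EcRi libraries, against 7.80, 7.50 and 8.89 CPM in the control libraries. The EcRi libraries differed by no more than 1.04-fold and the control libraries by no more than 1.19-fold. For hh the log2 fold change was 3.57 (standard error 0.10, adjusted p = 4.31e-07 by edgeR), or 11.9-fold.

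The receptor gene ptc, whose transcription Hedgehog signalling induces, had 15.1, 16.3 and 17.0 CPM in the EcRi libraries, against 4.86, 6.14 and 5.56 CPM in the control libraries (log2 fold change 1.55, standard error 0.11, adjusted p = 2.19e-05 by edgeR). The co-receptor gene ihog rose by 1.42 on the log2 scale. The signal transducer smo had a log2 fold change of 0.08 and did not pass the test (adjusted p = 0.459 by edgeR). Over the list of 11 other Hedgehog genes, 7 were higher and 1 was lower.

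Of 9 markers of the foregut and hindgut epithelium 8 were tested, and 3 of them, otp, fkh and Dr, were higher and none lower. Over all tested entries 30.1% were higher and 29.3% lower. Dr was low, at 0.277 CPM in EcRi and 0.0215 CPM in the control on average. The summed level of the 9 markers was 277 to 295 CPM in the EcRi libraries and 230 to 250 CPM in the control libraries. The hindgut determinant byn had 11.4 CPM in EcRi and 13.1 CPM in the control on average (adjusted p = 0.163 by edgeR), and eve had at most 3 counts in any library. Of 7 tracheal markers 5 were higher and none lower, led by the chitin deacetylase genes serp and verm, with a summed level of 642 to 717 CPM in the EcRi libraries and 84.9 to 126 CPM in the control libraries and none at 0. Most of this sum came from serp and verm, at means of 363 and 281 CPM in EcRi and 39.8 and 38.7 CPM in the control. The tracheal receptor gene btl had 5.02 CPM in EcRi and 4.42 CPM in the control on average (adjusted p = 0.409 by edgeR). The part of these tissues in the level of hh was not tested.

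The ligand genes dpp and wg had the smallest increases beside Krn. Dpp (FBgn0000490, chromosome 2L, plus strand, 2428372 to 2459823), the principal BMP ligand, had 7.05, 8.99 and 7.78 CPM in the EcRi libraries, against 4.82, 4.64 and 3.69 CPM in the control libraries. For dpp the log2 fold change was 0.86 (standard error 0.14, adjusted p = 0.00140 by edgeR). For wg (FBgn0284084, chromosome 2L, plus strand, 7307159 to 7316265), the principal Wnt ligand, the EcRi libraries had 4.16, 3.15 and 3.18 CPM and the control libraries 1.78, 2.20 and 1.63 CPM. Its lowest EcRi library was only 1.43 times its highest control library, the narrowest gap of the 10 genes, and its log2 fold change was 0.90 (standard error 0.18, adjusted p = 0.00358 by edgeR).

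With TMM none of the BMP or Wnt target genes passed the test as higher, and without it the Wnt target nkd did (log2 fold change 0.90, adjusted p = 0.00393 by edgeR). The BMP list had 5 higher and 5 lower genes of 14 tested and a median change of -0.07 on the log2 scale. The ligand gene gbb rose by 1.29 (38.8 ± 7.86 CPM in EcRi and 15.8 ± 1.74 CPM in the control), as did the receptor genes put (0.80) and sax (0.33). Dad, an inhibitor that BMP signalling induces, had a log2 fold change of -0.39 (adjusted p = 0.0214 by edgeR), which was 0.25 without TMM scaling and lost its call without control replicate 1 or 2 or without EcRi replicate 1 or 2 (adjusted p from 0.0525 to 0.0745). The repressor gene brk, which BMP signalling represses, had 11.5, 7.27 and 9.80 CPM in the EcRi libraries, against 17.2, 17.6 and 19.3 CPM in the control libraries (log2 fold change -0.92, standard error 0.16, adjusted p = 0.00197 by edgeR). Without TMM brk was -0.27 and no longer passed (adjusted p = 0.168 by edgeR). So the 2 target genes, which are known to respond to the pathway in opposite directions, were both lower with TMM.

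The BMP receptor genes wit and tkv did not rise: wit had a log2 fold change of -0.50 (0.16 without TMM), and tkv, whose libraries overlapped between the genotypes, one of -0.02 (adjusted p = 0.905 by edgeR). The protease gene tld, which frees BMP ligands from their antagonist, had 165, 134 and 251 counts in the EcRi libraries and 10, 2 and 2 in the control libraries. Its log2 fold change of 4.65 rests on these few control counts and was 5.70 without control replicate 1. The activin-type ligand gene daw was lower, with 31.5, 29.6 and 36.0 CPM in the EcRi libraries, against 69.9, 86.7 and 94.6 CPM in the control libraries (log2 fold change -1.37, and -0.71 without TMM). The ligand gene scw had at most 2 counts in any library.

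Of 20 other tested Wnt pathway genes 8 were higher and 4 lower, none of the higher ones by more than 2-fold. The ligand genes Wnt6 (log2 fold change 0.61) and Wnt5 (0.46) and the receptor gene fz (0.71) rose; Wnt5 lost its call without control replicate 1 or 3 or EcRi replicate 3 (adjusted p from 0.0739 to 0.0975 by edgeR). The ligand gene wntD was lower, at 1.14, 1.05 and 0.920 CPM in the EcRi libraries, against 1.97, 2.64 and 3.02 CPM in the control libraries (log2 fold change -1.29, and -0.63 without TMM). The Wingless feedback targets fz3 (-0.36) and Notum (-0.59) were lower with TMM, and their log2 fold changes were 0.30 and 0.07 without it. Notum lost its call when any single library other than control replicate 2 was left out (adjusted p from 0.0537 to 0.112 by edgeR), and fz3 without control replicate 2 or 3 or EcRi replicate 2 (0.0519 to 0.0680). A further target, nkd, had 6.76 ± 1.03 CPM in EcRi and 5.65 ± 0.797 CPM in the control (SD, n = 3 each; adjusted p = 0.179 by edgeR). Wnt2, Wnt4, fz2 and arr did not pass the test either, with log2 fold changes of 0.23, 0.08, 0.12 and 0.07, and Wnt10 had at most 9 counts in any library.

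Pvf1 (FBgn0030964, chromosome X, plus strand, 18832682 to 18842901) had 45.0, 63.4 and 41.4 CPM in the EcRi libraries, against 7.08, 11.9 and 7.99 CPM in the control libraries. Replicate 2 was the highest library of both genotypes for Pvf1, as it was for Socs36E and vn. For Pvf1 the log2 fold change was 2.47 (standard error 0.26, adjusted p = 0.000261 by edgeR). The other ligand genes of the same receptor rose too. Pvf2 had 8.23, 9.93 and 8.44 CPM in the EcRi libraries, against 1.22, 1.40 and 0.843 CPM in the control libraries (log2 fold change 2.94, standard error 0.20, adjusted p = 1.80e-05 by edgeR), and Pvf3 had a log2 fold change of 1.50. The receptor gene Pvr rose less, with 149 ± 15.5 CPM in EcRi and 96.2 ± 4.79 CPM in the control (log2 fold change 0.63, standard error 0.10, adjusted p = 0.00128 by edgeR).

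**Figure D3:**
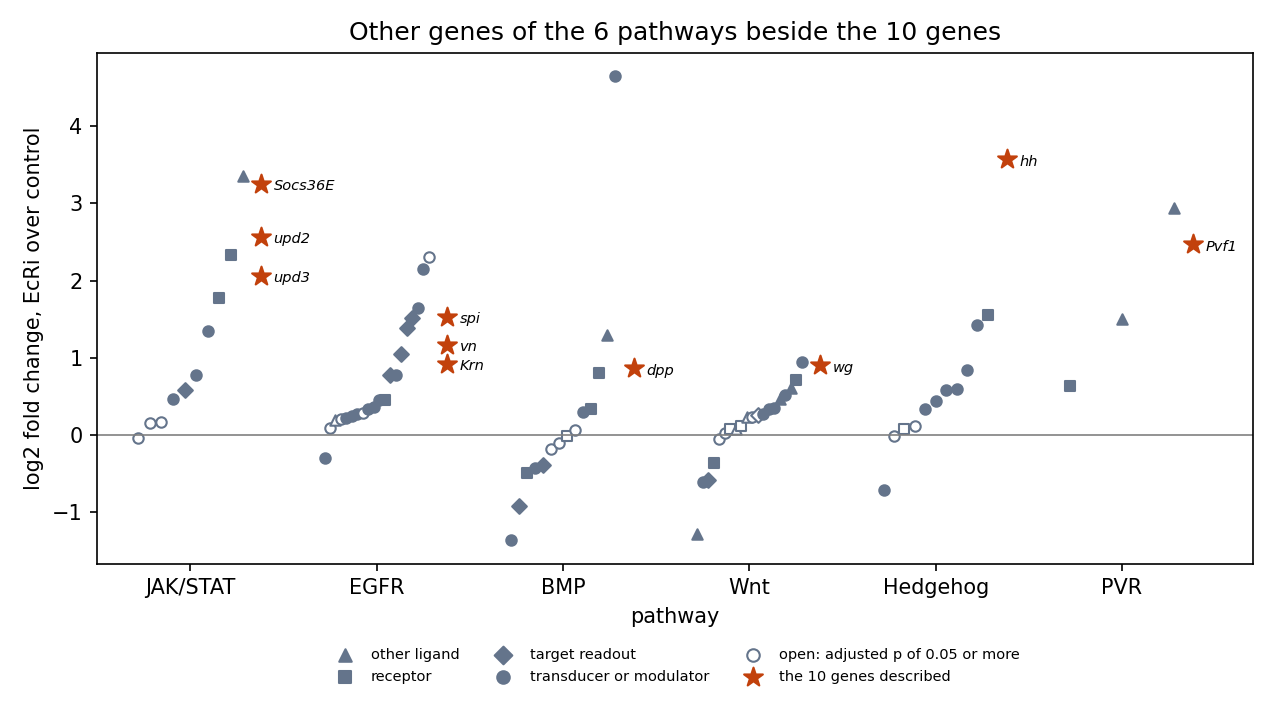
Log2 fold changes, EcRi over control, of the 78 tested other genes of the 6 pathways (grey, shape by role, open where the adjusted p was 0.05 or more) and of the 10 genes (orange stars), by pathway. The median of the other genes is highest for PVR (1.50), followed by JAK/STAT (0.68), Hedgehog (0.44), EGFR (0.40), Wnt (0.23) and BMP (-0.07), and each pathway but PVR has genes on both sides of 0.

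Levels of different genes were compared as CPM per kb of annotated exon. For Krn this length includes the 289 bases shared with Ndfip, so its place in the order, also beside spi, depends on how reads there were assigned. In the EcRi libraries Socs36E was the highest (137 CPM per kb, range 109 to 176), followed by hh (40.5, range 39.8 to 41.3). Spi (19.5), Krn (19.3) and Pvf1 (17.9) came next and overlapped with each other, and upd3 (3.51, range 2.54 to 4.98) stood alone below them. Dpp (1.52), upd2 (1.47), vn (1.39) and wg (1.20) formed the lowest group, in which each neighbour overlapped the next. In the control libraries Socs36E (14.4, range 8.96 to 22.0) overlapped with Krn (10.2, range 9.90 to 10.5). Spi (6.73) was next, then hh (3.40) and Pvf1 (3.23), which overlapped. Upd3 (0.844), dpp (0.841), wg (0.641) and vn (0.615) overlapped in their order, and upd2 (0.247, range 0.112 to 0.421) was below them all. The transcript of hh thus had rank 2 among the 10 in EcRi and rank 4 in the control, below Krn and spi, whose levels it exceeded in every EcRi library.

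**Figure D4:**
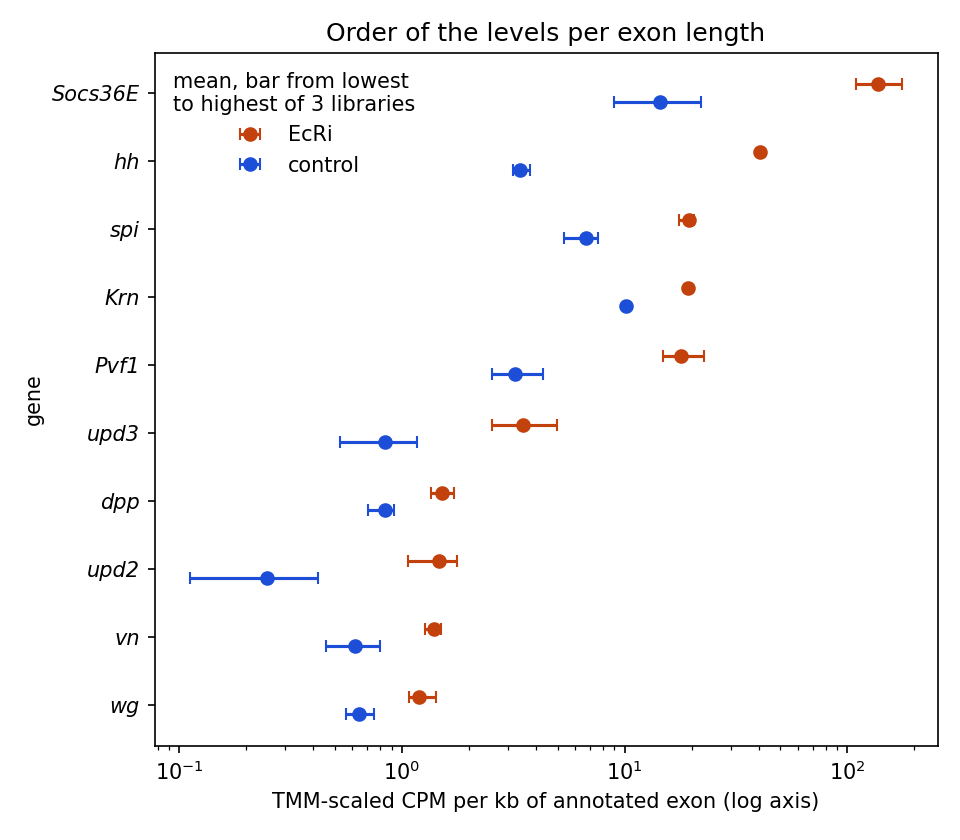
Mean level of each of the 10 genes in TMM-scaled CPM per kb of annotated exon (log axis) in EcRi (orange, upper) and control (blue, lower), with bars from the lowest to the highest of 3 libraries. Hh moves past spi and Krn in EcRi, 40.5 against 19.5 and 19.3 CPM per kb, while it lies below both in the control.

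Over the 6 pathway lists, 44 of 78 tested genes (56.4%) were higher and 11 (14.1%) lower, and their median change was 0.33 on the log2 scale, against 0.03 over all tested entries. The shares of higher genes were 70.0% for JAK/STAT and for EGFR, 63.6% for Hedgehog, 40.0% for Wnt and 35.7% for BMP, beside the 30.1% of all tested entries. The 3 PVR genes were all higher. By role, 60.0% of the other ligand genes, 57.1% of the receptor genes and 55.6% of the transducer genes were higher. The activin-type ligand gene daw, which was lower, was counted among the transducer genes, so the order of these shares depends on the grouping. Of 12 target genes, 7 were higher and 4 lower, and all 4 lower ones belong to the BMP or Wnt lists. The lists too were chosen with earlier results of these data known, so their shares are a description and not a test.

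Markers of the cell types an intestine can hold were counted beside the 30.1% of all tested entries that were higher and the 29.3% that were lower. Of 8 enterocyte markers 6 were lower and 1, nub, was higher, with a summed level of 6080 to 10300 CPM in the EcRi libraries and 33100 to 45900 CPM in the control libraries. Most of this sum came from Jon65Aiii, alphaTry, betaTry and LManVI. Jon65Aiii alone had 5060 CPM in EcRi and 21800 CPM in the control on average. The means of mex1 were 241 CPM in EcRi and 325 CPM in the control, and those of nub 84.7 and 48.8 CPM. Myo31DF, the gene whose enhancer gives the Myo1A driver its name, had 661 CPM in EcRi and 688 CPM in the control on average (adjusted p = 0.655 by edgeR). Of 5 progenitor markers 3 were higher and none lower, Delta among them (log2 fold change 2.02), with a summed level of 30.6 to 38.6 CPM in the EcRi libraries and 20.6 to 25.2 CPM in the control libraries. Enteroendocrine markers summed to 129 to 135 CPM in the EcRi libraries and 136 to 151 CPM in the control libraries, with 1 of 8 lower. Haemocyte markers, of which none of 6 was called by edgeR (1 at an unadjusted p below 0.05), summed to 26.5 to 50.8 CPM in the EcRi libraries and 28.2 to 46.0 CPM in the control libraries. Fat body markers varied most within a genotype, from 193 to 950 CPM in the EcRi libraries and from 37.3 to 782 CPM in the control libraries, with 1 of 6 called, Fbp1, which was higher. Of 7 imaginal disc markers, among which nub is listed again, 4 were higher and 1 lower, summing to 133 to 152 CPM in the EcRi libraries and 126 to 144 CPM in the control libraries. Most of this sum came from nub and from hth, the lower one. Also higher were vg, Dll and ap, at means of 0.0822, 0.0701 and 1.96 CPM in EcRi. Their means in the control were 0.00549, 0.00761 and 0.124 CPM. No enterocyte, progenitor, enteroendocrine, haemocyte, fat body or disc marker was at 0 in all libraries of a genotype, and the part of these cells in the ligand levels was not tested.

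The size of the increases depends on the scaling. With library totals in place of TMM the median change over all tested entries was 0.68 on the log2 scale, and those of the 10 genes were larger by 0.62 to 0.66, from 1.50 for dpp to 4.23 for hh. All 10 were then higher too, beside 57.3% of tested entries.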

How the data were processed

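On the Galaxy server the authors used Trim Galore! for adaptors, HISAT2 for alignment and featureCounts for counting, with the Ensembl annotation of dm6. Versions, the strand setting and the treatment of reads with several hits are not given in the sources used here. The deposited values are raw counts per entry, 1 column per library, and the 2 deposited tables are identical. Symbols came from a gene table that matched 97.8% of identifiers, and coordinates and exon lengths from the Ensembl annotation of BDGP6. The list gene Med was not analysed here, because its current identifier is not among the entries. No sequences are shown.

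In R 4.3.3, edgeR 4.0.16 was run on all 6 libraries with filterByExpr, TMM, a robust quasi-likelihood fit and Benjamini-Hochberg adjustment over the 12193 kept entries at 0.05. The standard error is the log2 fold change divided by the square root of F. At these depths 3 counts equal 0.0122 to 0.0149 CPM by library totals, before TMM scaling, a limit of counting error only. The study names limma-voom, which was an alternative (limma 3.58.1) beside DESeq2 1.42.0, RLE factors, library totals, other filters, genes alone, a replicate block, single libraries left out, a threshold of 0.01 and, for the ratios (0.5 added to each count), a prior count of 2. The fit was also run on simulated data in which few entries changed, with changes set in both directions alike. That setting lacks the difference in TMM factors between the genotypes, so it does not bear on the dependence on scaling. Members and lists were chosen with earlier results of these data known. All 10 genes, all other ligands, receptors and targets, and other list genes past 0.05 and a log2 fold change of 1 were named. Ndfip was named for its overlap with Krn, hop, Stat92E and single markers after their values were seen.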

Additional observations from a re-analysis of the deposited data

How the results depend on the processing

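All 10 genes kept their direction and an adjusted p below 0.05 in all 140 comparisons of a gene with an alternative. Deviations of same-numbered libraries correlated at -0.0566, 0.0369 and -0.0588, and those of differently numbered ones at -0.0271 to 0.0794. These values give no sign that the replicate numbers pair the libraries, but they cannot exclude it. Among the 10 genes, replicate 2 was the highest library for 6 in each genotype. With the replicate block 3328 entries were higher and 3327 lower, in place of 3676 and 3574, all 10 genes were still higher, and 40 list genes were higher and 9 lower. Dad (adjusted p = 0.0513) and Notum (0.0734, edgeR) lost their calls under it. Library totals without TMM gave 6982 entries higher and 1546 lower, and 68 list genes higher and 2 lower. Without TMM the log2 fold changes of tkv (0.63), wit (0.16), Dad (0.25), fz3 (0.30) and Notum (0.07) turned positive, and grk (0.82), Wnt2 (0.90), Wnt4 (0.71), fz2 (0.78), arr (0.73), nkd (0.90), smo (0.73) and tkv then passed the test as higher, while brk (-0.27) no longer passed. For tkv, which was not called, no filter gave 0.00 and at least 10 counts in every library gave 0.04. With single libraries left out, list genes called lower numbered 7 (without EcRi replicate 2) to 11, and the uncalled genes tkv (-0.12 to 0.07), Wnt4 (-0.10 to 0.35) and arr (-0.06 to 0.17) changed sign. Without any filter Notum no longer passed (adjusted p = 0.0954 by edgeR). Of 543 comparisons of the 39 other named genes, 503 kept direction and side of the threshold. Depth limits upd1, stet, tld, scw and Wnt10, which had 14 or fewer counts in every control library. The causes of these changes were not tested.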
